A study of Mus musculus with 9 samples.

Results

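Cytosolic ribosomal protein genes were taken from the count table by symbol: names starting with Rpl or Rps and a digit, plus Rplp0, Rplp1, Rplp2 and Rpsa. S6 kinases, pseudogene rows and paralogues such as Rpl22l1 were left out. This gave 77 of 17156 genes, 32 of the small ribosomal subunit and 45 of the large one. All but Rps4y2, which had 20 counts over all libraries, were tested. The samples were total RNA, depleted of ribosomal RNA, of cultured stellate cells from mouse pancreas, the fibroblasts that lay down matrix there in injury and cancer. They were wild-type lines of C57BL/6J origin, cultured for 4 days in 1 of 3 media. CM-JAKi cells had medium conditioned by pancreatic tumour organoids together with 500 nM AZD1480, an inhibitor of JAK kinases. CM cells had conditioned medium without the inhibitor. MG-CM cells had a control medium, labelled Matrigel-conditioned, of DMEM with 5% FBS. The labels name no vehicle and give no FBS content of CM apart from the control. In each group replicate 1 came from the line PSC4, and replicates 2 and 3 came from the PSC5 cultures PSC5-I and PSC5-II. Each replicate number had its own source of conditioned medium, so that line and source change together, and PSC4 has 1 library per group.

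The ribosome is built from a small subunit, which reads the messenger RNA, and a large subunit, which joins amino acids. Each holds ribosomal RNA and a set of proteins needed in about equal numbers, so cells make these proteins in step. The transcription factor MYC raises expression of ribosomal protein and ribosome assembly genes. The messenger RNAs of ribosomal proteins begin with a run of pyrimidines, the terminal oligopyrimidine (TOP) tract, through which the kinase complex mTORC1 and the RNA-binding protein LARP1 set their translation and stability. Growth and protein secretion both call on this machinery, and activated stellate cells do both.

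Libraries held 25625806 to 32466018 counts. The stellate and fibroblast markers, 10 genes with Col1a1, Vim and Pdgfrb among them, summed to 5192 to 8139 CPM (counts scaled to a common library total) in every library. Single genes of this list were not all high or steady. Des reached at most 3.32 CPM, Acta2 ran from 8.72 to 664 CPM and Dcn from 213 to 4609 CPM. In CM over MG-CM the list's log2 fold changes ran from -2.84 to 2.86. Markers of other cells gave a mixed picture. Ptprc, Epcam, Pecam1 and Cpa1, which define leukocytes, epithelium, endothelium and acinar cells, were at most 0.039, 0.179, 0.527 and 0.034 CPM in any library. Other genes of those lists were higher, up to 26.1 CPM for Sox9, 25.1 for Krt19, 16.5 for Muc1, 12.8 for Emcn, 13.9 for Cela1 and 114 for Cd14. The epithelial list summed to 31.8 to 47.1 CPM in CM-JAKi, 42.1 to 45.9 in CM and 38.1 to 53.5 in MG-CM. The endothelial list summed to 8.16 to 15.9 CPM in CM-JAKi, 2.49 to 3.20 in CM and 5.27 to 6.41 in MG-CM. The acinar list summed to 5.66 to 8.04 CPM in CM-JAKi, 9.70 to 14.1 in CM and 7.34 to 8.56 in MG-CM. In CM-JAKi against CM, edgeR called 2 of 7 epithelial genes tested (Muc1 and Spint1), 1 of 4 leukocyte genes (Cd14) and 1 acinar gene (Cela1) lower, and 2 of 5 endothelial genes (Emcn and Tek) higher. Of the 10 stellate markers, 2 were called higher and 1 lower (5 and 1 with the replicate number as a block). CM replicate 1 stood apart in several ways. Its scaling factor was the lowest (0.941), though close to the 0.952 of CM replicate 3. CM replicate 1 had the smallest share of mitochondrial transcripts (1.53%, against up to 1.90%) and the largest share of counts in Spp1 (2.18%). It also had the most Cd14, a monocyte marker that other cells can express, at 114 CPM, against 12.8 to 29.6 CPM in CM-JAKi, 30.3 and 49.2 CPM in the other CM libraries and 19.6 to 31.99 CPM in MG-CM. The other 7 leukocyte markers in the table summed to 3.89 CPM in that library, within the 3.05 to 4.76 CPM of all libraries. That library was the highest of the 9 for 53 of the 76 ribosomal protein genes tested, so values with and without PSC4 stand side by side where they differ. The part of these features in the results was not tested. In bulk RNA, a lower CPM of a gene can come from less of its RNA per cell or from fewer cells that make it, and these cannot be told apart.

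As a share of all counts, the 77 genes held 2.73%, 3.47% and 3.84% in CM-JAKi replicates 1, 2 and 3. In CM they held 4.27%, 3.75% and 3.77%, and in MG-CM 3.19%, 4.23% and 4.09%. The CM-JAKi mean was 3.35% ± 0.562, the CM mean 3.93% ± 0.292 and the MG-CM mean 3.84% ± 0.564 (SD, n = 3 each). The groups overlapped, and PSC4 gave both the lowest value, in CM-JAKi, and the highest, in CM. Small- and large-subunit genes moved together: the ratio of their summed counts stayed between 0.717 and 0.745 in all 9 libraries.

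The same order appeared gene by gene. CM-JAKi replicate 1 was the lowest library for 75 of the 76 genes tested. In that library and in MG-CM replicate 1, both PSC4, 0 of 76 genes were above their own mean over the 9 libraries. In CM replicate 1, also PSC4, 74 of 76 were above it. The PSC5 libraries of CM had 54 and 66 genes above their mean, those of MG-CM 73 and 75, and those of CM-JAKi 6 and 54. Within groups, the median SD of log2 CPM among replicates was 0.23 over these genes, against 0.15 for the 4187 genes at or above the level of the lowest member.

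**Figure D1:**
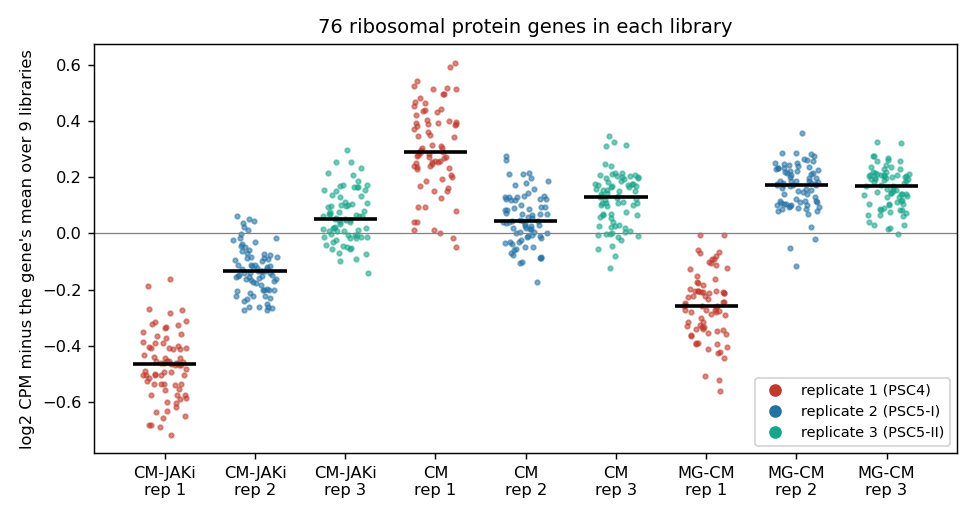
Each point is 1 of 76 ribosomal protein genes, as log2 CPM minus the gene's own mean over 9 libraries, and black bars are medians; colours give the replicate number. PSC4 libraries (replicate 1) lie at medians of -0.47 in CM-JAKi, 0.29 in CM and -0.26 in MG-CM, outside the range of the PSC5 medians (-0.13 to 0.17).

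Levels between genes were compared per kilobase of the principal transcript, which 75 of the 76 genes tested had. The median was 535 CPM per kb. The highest was Rps2, a small-subunit protein at the channel where messenger RNA enters, with 1711 CPM per kb. Next came 2 proteins of the P stalk, the arm of the large subunit that calls in translation factors: Rplp1 had 1542 and Rplp0 1510 CPM per kb. The lowest were Rpl27 with 103.5 CPM per kb and Rpl5 with 110.0. The Rpl5 value divides a mean of 225 CPM by a listed transcript length of 2045 bases, so it depends on the transcript listed. The Rpl27 value is uncertain, since 75.5% of the counts shared by the gene and its pseudogenes were listed under Rpl27-ps rows. For Rpl10, the gene with the next highest share, it was 5.14%. Rplp0 alone held 5.14% to 6.27% of ribosomal protein counts in a library, lowest in CM replicate 3 and highest in MG-CM replicate 1.

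What JAK inhibition does in organoid medium is addressed by CM-JAKi against CM. Ribosomal protein genes were lower in CM-JAKi, with a median log2 fold change of -0.32 over 76 genes, against 0.01 over all 13613 genes tested. All 76 had a negative fold change, between -0.62 and -0.05. The spread between replicates was wide, with a median standard error of 0.17, and edgeR's quasi-likelihood test called 2 genes lower and 0 higher at an adjusted p under 0.05. That is 2.63% of the genes, against 8.93% of all genes called lower and 10.1% called higher. At an unadjusted p under 0.05, 22 of 76 were lower, against 16.2% of all genes.

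Rpl13a, a large-subunit protein that in human monocytes also leaves the ribosome to silence inflammatory messenger RNAs after interferon, changed most. Its level was 446, 547 and 604 CPM in CM-JAKi and 926, 784 and 751 CPM in CM, with 525, 691 and 681 CPM in MG-CM. Every CM-JAKi library lay below every CM library. Rpl13a fell by 0.62 ± 0.16 (log2, SE) in CM-JAKi against CM, with an edgeR adjusted p of 0.0279.

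Rps24, a small-subunit protein needed to trim the precursor of ribosomal RNA and mutated in human Diamond-Blackfan anaemia, was the other called gene. It had 232, 275 and 319 CPM in CM-JAKi, 465, 352 and 380.3 CPM in CM, and 278, 358 and 361 CPM in MG-CM. CM-JAKi and CM did not overlap, while the MG-CM values reached from the CM-JAKi range into that of CM. Rps24 fell by 0.54 ± 0.16 (log2, SE) in CM-JAKi against CM, with an edgeR adjusted p of 0.0490.

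Other genes had changes of like size and did not pass the test. Rps12, a small-subunit protein known in Drosophila for its part in cell competition, had 378, 480.1 and 563 CPM in CM-JAKi, 838, 630.5 and 679 CPM in CM, and 452, 616 and 674 CPM in MG-CM. The CM-JAKi libraries were again all below the CM libraries, and replicate 1 was lowest in CM-JAKi and highest in CM. Its log2 fold change was -0.60 ± 0.20 (SE; edgeR adjusted p = 0.0657). Rps18, in the head of the small subunit, had 414, 525 and 611 CPM in CM-JAKi against 840.1, 701 and 711 CPM in CM. Rpl12, at the base of the P stalk, had 408, 505 and 601 CPM in CM-JAKi against 819, 666 and 698 CPM in CM. For both the groups did not overlap, and the log2 fold changes were -0.54 ± 0.18 and -0.53 ± 0.18 (SE).

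Rpl5, which with Rpl11 carries a small ribosomal RNA into the large subunit and can bind the p53 regulator Mdm2, had 164, 200.0 and 219 CPM in CM-JAKi. In CM it had 333, 239.6 and 253 CPM, and in MG-CM 189, 203 and 223 CPM. The CM libraries were above all others, and the CM-JAKi and MG-CM libraries overlapped. The log2 fold change of CM-JAKi over CM was -0.50 ± 0.15 (SE; edgeR adjusted p = 0.0508). Its partner Rpl11 had 274, 328 and 387 CPM in CM-JAKi and 447, 362 and 418 CPM in CM, with a log2 fold change of -0.31 ± 0.16 (SE; edgeR adjusted p = 0.192).

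**Figure D2:**
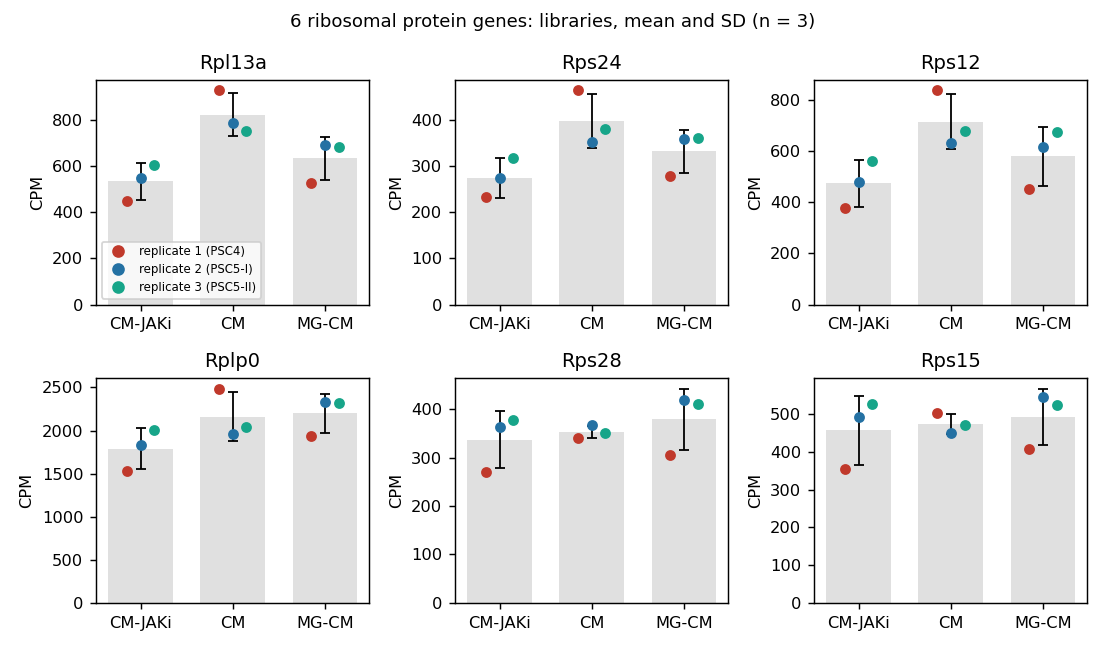
CPM of 6 ribosomal protein genes in each library (points, coloured by replicate number), with the group mean (bar) and SD (n = 3). CM-JAKi lies below CM in every library for Rpl13a, Rps24 and Rps12, and the groups overlap for Rplp0, Rps28 and Rps15.

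In all, 31 of 76 genes (40.8%) had every CM-JAKi library below every CM library, against 18.3% of all genes, and 0 had the reverse, against 20.1%. Of these 31, 12 were of the small and 19 of the large subunit. The median log2 fold change was -0.32 for 31 small-subunit genes and -0.33 for 45 large-subunit genes. A replicate number stands for 1 stellate culture and, in CM-JAKi and CM, 1 medium source. With the replicate number as a block, edgeR called 8 genes lower: Rpl12, Rpl13a, Rpl5, Rps12, Rps18, Rps24, Rps27a and Rps3. This is 10.5% of the genes, against 15.6% of all genes called lower in that fit. DESeq2 called 12 lower, against 11.7% of all genes, Rpl34, Rpl35a, Rplp2 and Rps20 among them and Rps27a not. The count depended on single libraries: it was 0 without CM replicate 1, without CM-JAKi replicate 1 or without CM-JAKi replicate 2, and 1 without CM replicate 3.

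**Figure D3:**
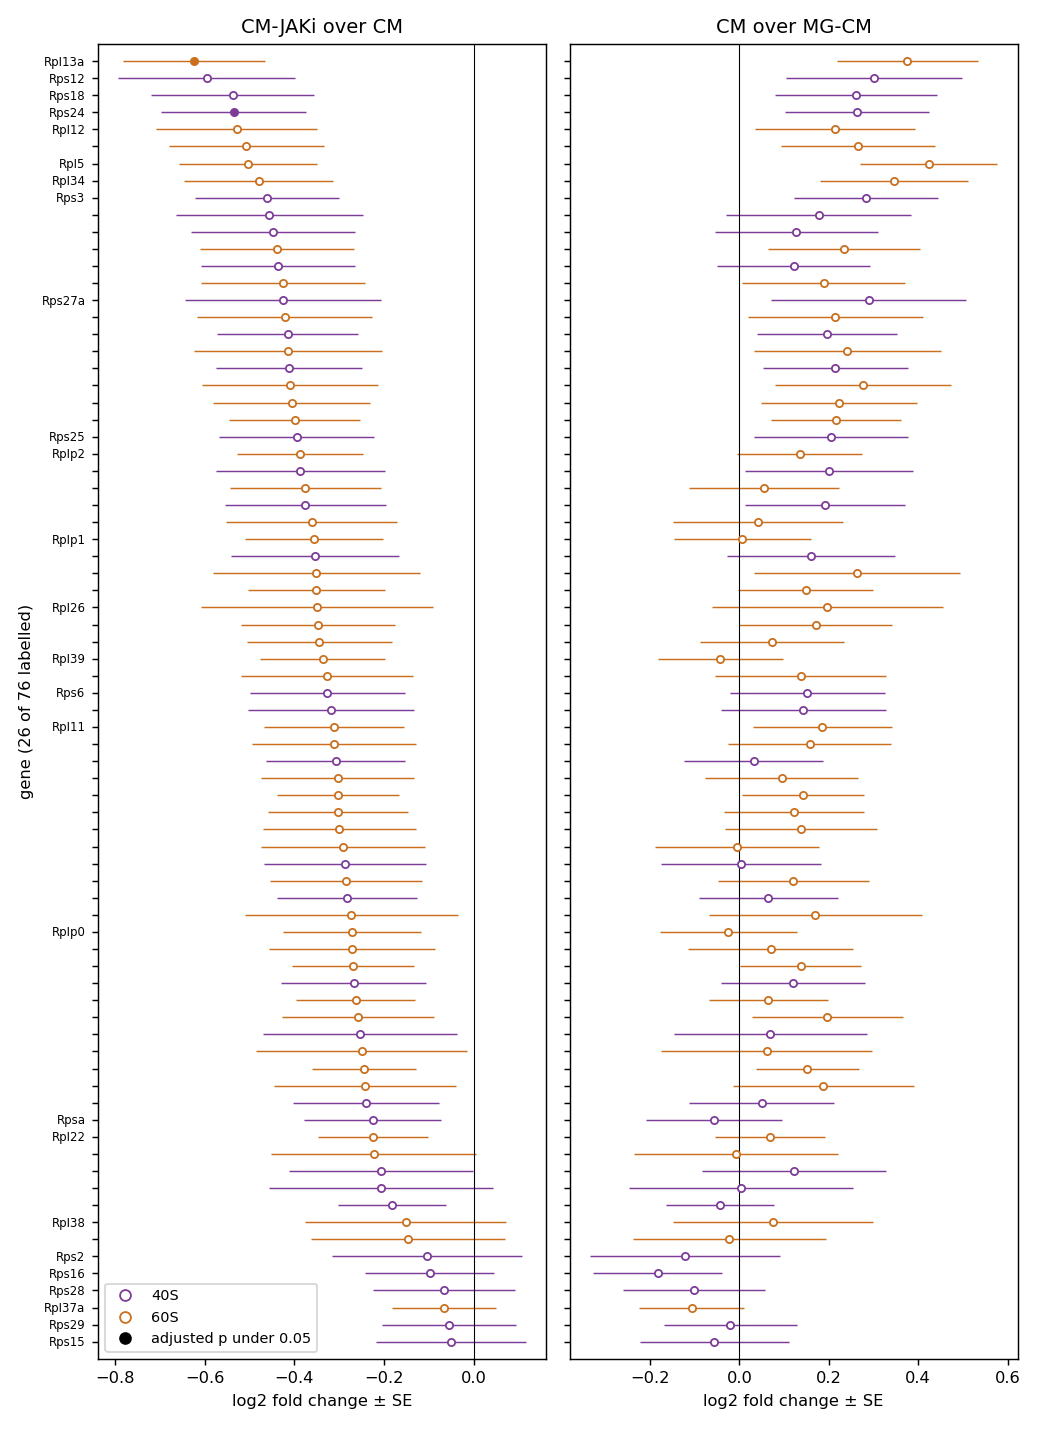
Log2 fold change with its standard error for each of 76 ribosomal protein genes in CM-JAKi over CM (left) and CM over MG-CM (right), in the order of the left panel, some of them labelled; purple is the small subunit (40S), orange the large (60S), and filled points passed the test. All 76 points on the left are below 0, Rpl13a and Rps24 being filled, and none on the right is filled.

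The pairs gave medians of different size. The median difference in log2 CPM, CM-JAKi minus CM, was -0.78 in the PSC4 pair, -0.17 in PSC5-I and -0.06 in PSC5-II, and the all-gene medians were at most 0.02. All 76 genes were lower in the PSC4 pair, 72 in PSC5-I and 54 in PSC5-II. The 54 genes lower in 3 of 3 pairs made up 71.1%, against 31.1% of all genes. A model with a term for each line and group put the PSC4 change below the PSC5 change for 76 of 76 genes, with a median difference of -0.65 (range -0.95 to -0.38). Tested gene by gene with edgeR, 0 of these differences passed the adjusted threshold, which 0.367% of all genes did in either direction. The smallest edgeR adjusted p was 0.128. At an unadjusted p under 0.05, 75 of 76 were lower, against 5.52% of all genes. That model has a single PSC4 library per group, assumed to vary like PSC5.

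Within the PSC5 libraries alone, with the replicate block, edgeR called 8 genes lower, 10.5% against 14.6% of all genes. They were Rpl12, Rpl13a, Rpl34, Rpl5, Rps12, Rps18, Rps24 and Rps3. In that fit 15 of 76 genes (19.7%) were lower at an unadjusted p under 0.05 in edgeR, against 20.5% of all genes. None was higher at that p, against 22.5% of all genes. Rpl13a had a log2 fold change of -0.41 ± 0.09 (SE; edgeR adjusted p = 0.0125) and Rps24 of -0.30 ± 0.08 (SE; edgeR adjusted p = 0.0288). Both values were closer to 0 than those over all 9 libraries.

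**Figure D4:**
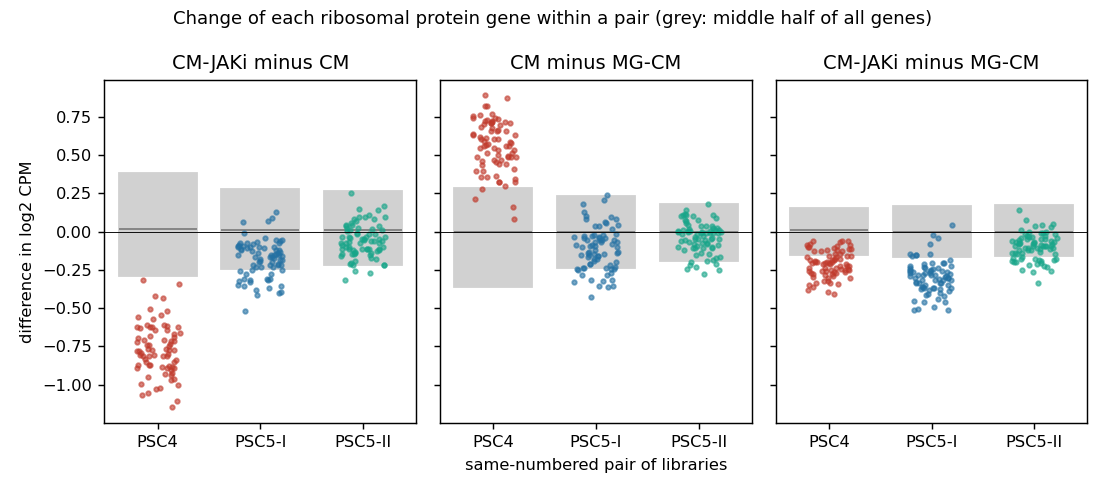
Difference in log2 CPM of each of 76 ribosomal protein genes (points) between libraries of the same replicate number, for 3 comparisons; grey boxes span the quartiles of all genes tested, with their median as a line. The PSC4 points reach medians of -0.78 in CM-JAKi minus CM and 0.57 in CM minus MG-CM, while the PSC5 medians lie between -0.30 and -0.02.

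The start regions of the genes at either end of the ranking are shown because TOP tracts lie at the transcript start. Each window runs from 10 bases before to 20 bases from the start annotated by RefSeq on GRCm38.p6, on the gene's own strand. Capitals mark pyrimidine runs that hold the word CTTTC, the word CTTTT, the word CTTCC or the word CCTTT. The first 5 windows belong to the genes with the most negative CM-JAKi over CM fold changes. They are Rpl13a at chr7:45128726-45128755 (minus strand), Rps12 at chr10:23787190-23787219 (minus), Rps18 at chr17:33955646-33955675 (minus), Rps24 at chr14:24490668-24490697 (plus) and Rpl12 at chr2:32961702-32961731 (plus).
Rpl13a: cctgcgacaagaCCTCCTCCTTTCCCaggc
Rps12: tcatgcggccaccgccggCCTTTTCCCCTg
Rps18: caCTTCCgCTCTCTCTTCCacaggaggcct
Rps24: gctggggTCCTTCCTTgcgcgttgatatga
Rpl12: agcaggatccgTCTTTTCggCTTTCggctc

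The other 5 windows belong to genes with the flattest response, with Rps29 the remaining gene of that set. They are Rps2 at chr17:24720053-24720082 (plus), Rps16 at chr7:28350679-28350708 (plus), Rps28 at chr17:33824543-33824572 (minus), Rpl37a at chr1:72711250-72711279 (plus) and Rps15 at chr10:80292421-80292450 (plus).
Rps2: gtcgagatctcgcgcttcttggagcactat
Rps16: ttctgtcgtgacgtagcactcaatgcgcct
Rps28: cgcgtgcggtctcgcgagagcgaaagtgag
Rpl37a: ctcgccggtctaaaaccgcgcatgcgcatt
Rps15: cagagctcgcgataactgcgcaagcgcagc

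All of the first 5 windows hold a word and none of the other 5 does, and these genes were picked for their fold changes. A single annotated start per gene was used, and a word could lie anywhere in the window. A window without a word therefore does not show that the messenger RNA lacks a TOP tract. Over all 55 members with an entry, 23 (41.8%) hold a word on the sense strand, against 13.5% of 27025 promoters. The same words on the opposite strand were in 16.4% of members and 14.3% of promoters. Members with and without a word had close medians: the median log2 fold change of CM-JAKi over CM was -0.35 for 23 genes with it and -0.31 for 32 genes without it, and the ranges, -0.62 to -0.15 and -0.50 to -0.05, overlapped. In the 300 bases around the start, CCGGAAG, the core word of ETS factors, was found on either strand in 38.2% of members and 9.12% of promoters. The palindrome CTCGCGAG was in 10.9% and 0.958%, AAGATGGC, a word of the factor YY1, in 7.27% and 2.88% (both strands), and TATAAA on the sense strand in 9.09% and 8.88%. A match is a description of letters and not a binding site.

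At the flat end, the 6 genes were Rps15, Rps29, Rps28, Rpl37a, Rps16 and Rps2, most of them of the small subunit. Rps15, whose tail reaches the decoding centre, had 354, 492 and 528 CPM in CM-JAKi, 503, 449.5 and 471 CPM in CM, and 408, 547 and 524 CPM in MG-CM. In CM-JAKi, replicates 2 and 3 were within or above the CM range, and replicate 1 was below it. Its log2 fold change was -0.05 ± 0.17 (SE; edgeR adjusted p = 0.857). Rps28 had 269.7, 364 and 378 CPM in CM-JAKi, 342, 367 and 351 CPM in CM, and 306, 419.6 and 411 CPM in MG-CM, with a fold change of -0.07 ± 0.16 (log2, SE). Scaled by library size alone, Rps15, Rps28, Rps29 and Rpl37a had fold changes just above 0 (0.03 to 0.04), and the other 72 genes stayed negative. That scaling moved the median of all genes to 0.10.

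The effect of organoid medium itself is addressed by CM against MG-CM. EdgeR called 0 of 76 genes in either direction, where 10.2% of all genes were called. With the replicate block it called 0, against 24.4% of all genes, and DESeq2 called 0, against 17.2%. At an unadjusted p under 0.05 in edgeR, 2 genes, Rpl5 and Rpl13a, were higher in CM, against 13.9% of all genes. The median log2 fold change was 0.14, with 63 genes above 0 and 13 below. Scaled by library size alone, 51 were above 0 and 25 below.

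The PSC4 pair and the PSC5 pairs had medians of opposite sign. The median difference, CM minus MG-CM, was 0.57 in PSC4, where 76 of 76 genes were higher in CM. It was -0.11 in PSC5-I, where 14 were higher and 62 lower, and -0.02 in PSC5-II, where 27 were higher and 49 lower. The PSC4 change minus the PSC5 change had a median of 0.63 (range 0.26 to 0.91) and was above 0 for 76 of 76 genes. Gene by gene, edgeR called 0 of these differences (smallest adjusted p = 0.104; 0.228% of all genes were called), and 74 of 76 were higher at an unadjusted p under 0.05, against 6.63% of all genes. The comparisons of CM-JAKi with CM and of CM with MG-CM share the CM libraries, so their PSC4 values both rest on CM replicate 1.

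Rpl5 had the highest fold change in CM over MG-CM, 0.42 ± 0.15 (log2, SE; edgeR adjusted p = 0.113), and was higher in CM in 3 of 3 pairs. Rpl13a followed with 0.38 ± 0.16 (SE; edgeR adjusted p = 0.157), also in 3 of 3 pairs. With them Rpl17, Rpl23, Rpl34, Rps27a and Rps3 had every CM library above every MG-CM library, 7 genes or 9.21%, against 16% of all genes. Of 76 genes, 10 (13.2%) were higher in CM in 3 of 3 pairs, against 28.2% of all genes. At the other end, Rps16 had 255, 254 and 239 CPM in CM and 241, 324 and 284 CPM in MG-CM, overlapping groups with a fold change of -0.18 ± 0.14 (log2, SE). In the PSC5 libraries alone, with the block, edgeR called 1 gene: Rpl39, which lines the tunnel where the new protein leaves the ribosome, fell by 0.29 ± 0.07 (log2, SE; adjusted p = 0.0330), and 10.6% of all genes were called lower.

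CM-JAKi against MG-CM sets inhibited cells beside control medium, and its fold changes do not compare with the CM libraries. In the fit over 9 libraries, the filter, scaling and spread behind the p values also came from CM, replicate 1 included. EdgeR called 0 genes, against 1.01% of all genes in either direction. It called 0 with the block, against 4.25% of all genes, and DESeq2 called 0, against 3.45%. At an unadjusted p under 0.05, 2 genes, Rpl39 and Rplp1, were lower, against 5.31% of all genes. The median log2 fold change was -0.19, with 76 of 76 genes below 0, also when scaled by library size alone. The pair medians were all negative, -0.21 in PSC4, -0.30 in PSC5-I and -0.09 in PSC5-II. Of 76 genes, 67 (88.2%) were lower in 3 of 3 pairs, against 23.9% of all genes. The PSC4 change minus the PSC5 change had a median of -0.0033 and reached an unadjusted p under 0.05 for 0 genes in edgeR, against 3.86% of all genes. Only 1 gene had groups that did not overlap, 1.32% against 8.24% of all genes called lower in this way.

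That gene was Rpl39. It had 177, 179 and 196 CPM in CM-JAKi, 286, 203 and 208 CPM in CM, and 215, 255 and 247 CPM in MG-CM. All CM-JAKi libraries were below all others. Over all libraries its fold change of CM-JAKi over MG-CM was -0.38 ± 0.14 (log2, SE; edgeR adjusted p = 0.349). In PSC5 alone, with the block, it was -0.43 ± 0.07 (log2, SE; edgeR adjusted p = 0.0210), where 3.57% of all genes were called lower. In that fit 33 of 76 genes were lower at an unadjusted p under 0.05, against 11.7% of all genes.

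The lines were also compared across media, as a difference between these libraries. The PSC4 libraries are of a single culture and the PSC5 libraries of PSC5-I and PSC5-II. The p values therefore do not measure the spread between cultures of a line. In a fit with group and line, edgeR called 8 of 76 genes lower in PSC4 than in PSC5, which is 10.5% of members and 10.5% of all genes. They were Rpl19, Rpl23a, Rpl26, Rpl27, Rpl36, Rpl38, Rps14 and Rps28. Rpl26, which in human cells also binds the p53 messenger RNA, had 289, 497 and 316 CPM in the PSC4 libraries of CM-JAKi, CM and MG-CM. Its PSC5 libraries had 459 and 525 CPM in CM-JAKi, 539 and 583 CPM in CM, and 548 and 549 CPM in MG-CM. PSC4 was below PSC5 within each group, and its log2 difference, PSC4 minus PSC5, was -0.57 ± 0.13 (SE; edgeR adjusted p = 0.0172). Rpl38, which in mouse embryos favours translation of Hox messenger RNAs, had 110.0, 162 and 123 CPM in PSC4. In PSC5 it had 168 and 196 CPM in CM-JAKi, 179 and 185 CPM in CM, and 186 and 190.0 CPM in MG-CM.

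The position of PSC4 was not the same in every medium. It lay below both PSC5 libraries for 76 of 76 genes in CM-JAKi and 75 of 76 in MG-CM, with median differences of -0.41 in each. In CM it lay below both for 8 genes and above both for 63, with a median of 0.23. Without CM replicate 1 the same fit called 67 of 76 genes lower in PSC4 (88.2%, against 10.7% of all genes). Without CM-JAKi replicate 1 or MG-CM replicate 1 it called 0, where 3.4% and 6.07% of all genes were called lower. Line and medium source cannot be told apart here.

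The P stalk has 3 members here. Rplp0 anchors the stalk and had 1532, 1828 and 2012 CPM in CM-JAKi, 2484, 1965 and 2036 CPM in CM, and 1942, 2332 and 2325 CPM in MG-CM. The ranges overlapped in each comparison. Rplp1 and Rplp2, which carry the tails that bind elongation factors, had fold changes of -0.36 ± 0.15 and -0.39 ± 0.14 (log2, SE) in CM-JAKi over CM. For both, CM-JAKi and CM did not overlap, and neither passed the edgeR test (adjusted p = 0.137 and 0.0858).

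Rps6 is the small-subunit protein phosphorylated by the S6 kinases below mTORC1. It had 445, 575 and 671 CPM in CM-JAKi, 765, 658 and 696 CPM in CM, and 519.7, 678 and 710.1 CPM in MG-CM, overlapping in every comparison. Rpsa, also known as the laminin receptor precursor, had 1113, 1265 and 1428 CPM in CM-JAKi, 1698, 1334 and 1417 CPM in CM, and 1320, 1668 and 1640 CPM in MG-CM. Rps25, needed for initiation at internal ribosome entry sites, had 215, 244 and 283 CPM in CM-JAKi, 396, 271 and 308 CPM in CM, and 235, 314 and 298 CPM in MG-CM. In all 3 genes replicate 1 was the lowest library of CM-JAKi and of MG-CM and the highest of CM.

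Rps27a is made as a fusion with ubiquitin. It had 191, 259 and 321 CPM in CM-JAKi, 343, 334 and 359 CPM in CM, and 203, 312 and 333 CPM in MG-CM. Every CM library was above every other library. Its fold change of CM-JAKi over CM was -0.43 ± 0.22 (log2, SE; edgeR adjusted p = 0.203), and it was called only with the block, at -0.47 ± 0.15 (edgeR adjusted p = 0.0451). Ribosomal proteins with other symbols were outside the rule. Fau (fused to a ubiquitin-like protein) was at 312, 351 and 402 CPM in CM-JAKi and 594, 443 and 443 CPM in CM. Its log2 fold change was -0.47 ± 0.15 (SE; edgeR adjusted p = 0.0613). Gnb2l1, the scaffold also called Rack1, had a fold change of -0.40 ± 0.25 (log2, SE) and was not called.

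Among paralogues, Rpl22l1 passed the test. It had 15.7, 15.9 and 17.9 CPM in CM-JAKi, 23.8, 25.0 and 21.3 CPM in CM, and 17.8, 25.3 and 21.1 CPM in MG-CM. CM-JAKi was below CM throughout, and the gene fell by 0.50 ± 0.14 (log2, SE; edgeR adjusted p = 0.0369). Rpl22, whose protein in mouse holds down Rpl22l1, was at 153, 183 and 193 CPM in CM-JAKi and 234, 194 and 191 CPM in CM, with overlapping groups and a fold change of -0.23 ± 0.12 (log2, SE; edgeR adjusted p = 0.227). Of 40 pseudogene rows 16 were tested, and their median log2 fold change in CM-JAKi over CM was -0.30 with 0 called by edgeR or DESeq2 and 1 lower at an unadjusted p under 0.05. Reads from a pseudogene and its parent gene cannot be told apart with certainty.

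The genes that build ribosomes were compared in the same fit, by lists drawn up from general knowledge. Of 43 ribosome biogenesis genes tested, 10 fell in CM-JAKi against CM and 0 rose (18 and 0 with the replicate block), and the median log2 fold change was -0.37. The pair medians were -0.74, -0.34 and -0.09 in PSC4, PSC5-I and PSC5-II. Noc4l, Mphosph10, Wdr75 and Nop14, all parts of the machinery that processes precursor ribosomal RNA for the small subunit, fell by 0.43 ± 0.09, 0.52 ± 0.12, 0.58 ± 0.13 and 0.67 ± 0.16 (log2, SE). Wdr75 had 73.2, 68.4 and 80.3 CPM in CM-JAKi, 131, 95.6 and 105 CPM in CM, and 72.2, 76.1 and 88.1 CPM in MG-CM. The CM libraries stood above all others, and Wdr75 was also called in CM over MG-CM (0.49 ± 0.13 log2, SE; edgeR adjusted p = 0.0485), as it was in 7 of 17 alternatives. Mphosph10 was the other list member called higher there (0.46 ± 0.12 log2, SE; edgeR adjusted p = 0.0416), and 4 were with the replicate block. These 2 and 4 of 43 compare with 4.85% of all genes called higher, and 11.6% with the block. The list's median in CM over MG-CM was 0.20.

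Of 14 genes for RNA polymerase I, which copies ribosomal DNA, and its factors, 3 fell in CM-JAKi against CM (Polr1a, Twistnb and Taf1d), and 5 with the block. Of 10 chaperones and importins of ribosomal proteins, 1 fell, Ipo7, which imports such proteins into the nucleus, and 3 with the block. Among 19 translation factors and other proteins with TOP messenger RNAs, 2 fell (3 with the block) and the median was -0.24. Pabpc1, the poly(A)-binding protein, had 192, 206 and 282 CPM in CM-JAKi, 528, 332 and 448 CPM in CM, and 315, 255 and 311 CPM in MG-CM. The CM libraries were the 3 highest, and Pabpc1 fell by 0.94 ± 0.20 (log2, SE; edgeR adjusted p = 0.0147). Tpt1, a growth-related protein, fell by 0.51 ± 0.13 (log2, SE; edgeR adjusted p = 0.0313). Mitochondrial ribosomal proteins, encoded in the nucleus for the separate ribosome of mitochondria, had a median of -0.03: of 76 tested, Mrps6 rose and Mrps2 fell in CM-JAKi against CM (5 rose and 4 fell with the replicate block). Of all genes, 8.93% were called lower and 10.1% higher in this comparison, and 15.6% and 18.6% with the replicate block.

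**Figure D5:**
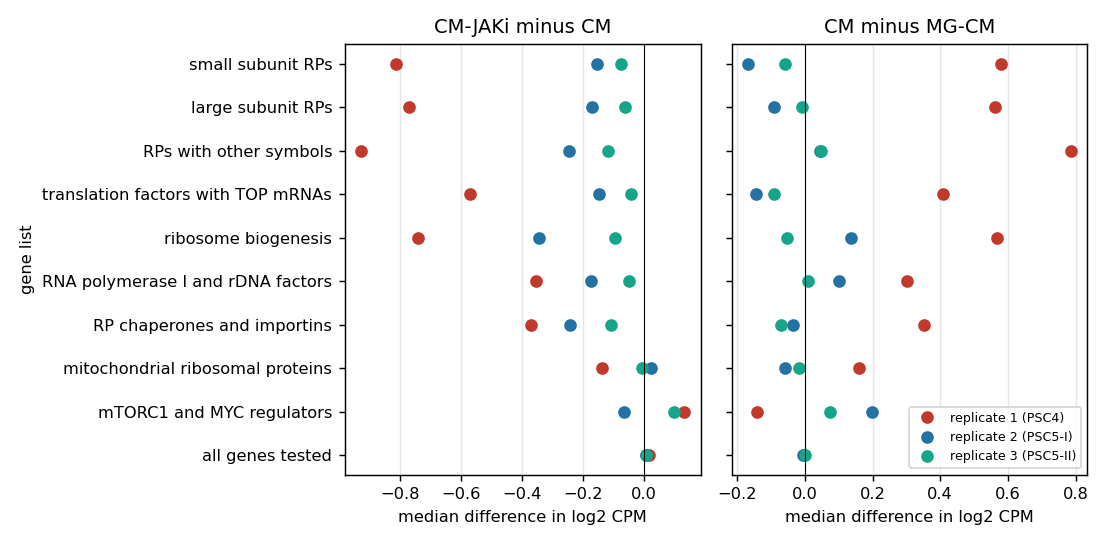
Median difference in log2 CPM of each gene list within each pair of libraries, CM-JAKi minus CM (left) and CM minus MG-CM (right), coloured by replicate number. In CM-JAKi minus CM the ribosome biogenesis list lies at -0.74, -0.34 and -0.09 and all genes tested lie at 0.01 to 0.02; the PSC4 point is the lowest in every list but the mTORC1 and MYC regulators and all genes tested.

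Regulators moved in both directions. Of 21 genes of mTORC1 and MYC, 5 fell and 5 rose in CM-JAKi against CM (6 and 5 with the replicate block). Of all genes, 8.93% were called lower and 10.1% higher there, and 15.6% and 18.6% with the block. Myc had 26.1, 31.9 and 39.3 CPM in CM-JAKi, 90.6, 71.8 and 59.0 CPM in CM, and 43.4, 42.4 and 52.2 CPM in MG-CM. The 3 groups did not overlap, and Myc fell by 1.19 ± 0.19 (log2, SE; edgeR adjusted p = 0.00548) in CM-JAKi against CM. In CM over MG-CM its fold change was 0.68 ± 0.19 (log2, SE; edgeR adjusted p = 0.0536, and 0.0491 with the replicate block). Larp1 binds TOP messenger RNAs. Its level was 141, 147 and 169 CPM in CM-JAKi, against 194, 199 and 204 CPM in CM, and fell by 0.39 ± 0.11 (log2, SE; edgeR adjusted p = 0.0351).

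Mxd4, which competes with MYC for its partner Max, had 166, 171 and 154 CPM in CM-JAKi, 77.3, 94.7 and 89.4 CPM in CM, and 135, 153 and 131 CPM in MG-CM. Sesn1, an inhibitor of mTORC1, had 71.6, 70.4 and 67.6 CPM in CM-JAKi, 22.3, 30.5 and 33.4 CPM in CM, and 53.0, 57.2 and 56.8 CPM in MG-CM. The CM libraries were below all others for both. Mxd4 rose by 0.91 ± 0.10 and Sesn1 by 1.28 ± 0.14 (log2, SE) in CM-JAKi against CM, and both fell in CM against MG-CM, by 0.68 ± 0.10 and 0.95 ± 0.14. The remaining called genes of the list were named after their values were seen: Mxd1, Deptor and Rps6kb2 rose in CM-JAKi against CM, and Larp4, Eif4ebp1 and Ddit4 fell. Eif4ebp1 encodes a repressor of translation, and Ddit4 an inhibitor of mTORC1, so the called members include inhibitors on both sides. In CM against MG-CM, 3 of the 21 rose and 3 fell (5 and 4 with the replicate block). Of all genes, 4.85% were called higher and 5.39% lower, and 11.6% and 12.8% with the block. In that comparison edgeR called 0 of the polymerase I genes (1 higher at an unadjusted p under 0.05; 0 with the block or DESeq2). It also called 0 of the TOP factors and 0 of the chaperones and importins (2 and 1 higher at an unadjusted p under 0.05), where the block and DESeq2 each called 1 in either list. Of all genes, 13.9% were higher at that unadjusted p in edgeR, and DESeq2 called 8.23% higher. Mrps6, of the mitochondrial ribosome, fell in CM against MG-CM. In CM-JAKi against MG-CM, 0 genes of these lists were called by edgeR without the block, with it, or by DESeq2. Of all genes, 1.01%, 4.25% and 3.45% were called there. At an unadjusted p under 0.05 in edgeR, 4 of the 21 mTORC1 and MYC genes were higher and 1 lower there, against 5.36% and 5.31% of all genes. Of the biogenesis genes, 0 were in either direction, against 10.7% of all genes.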

How the data were processed

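Strand-specific total RNA libraries were made with a TruSeq kit after removal of ribosomal RNA, per the labels' protocols. NCBIM37 and mm9 are the builds given, with no role, in the submitters' processing notes, and the tools given there are RSEM 1.2.29, STAR 2.5.1b and DESeq2. The deposited values were read as the authors' expected counts per gene, since they are unscaled whole numbers and RSEM gives estimates. RSEM divides reads between near-identical genes, so ribosomal protein genes and their pseudogenes can exchange counts.

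Here edgeR 4.0.16 in R 4.3.3 was used: filterByExpr (minimum count 10, total 15; 13613 of 17156 genes kept), TMM scaling and a robust quasi-likelihood fit of group over 9 libraries. Adjusted p values are Benjamini-Hochberg over all genes kept, and genes were called under 0.05. CPM is counts per TMM-scaled library total, and log2 CPM within pairs used a prior count of 2. DESeq2 1.42.0 was an alternative. No covariate was in the fit; the same replicate number means the same culture (and, for CM and CM-JAKi, medium source), and same-number libraries correlated at 0.29 to 0.68 after group means were removed (9 pairs). Values with a replicate block are given where it changes a count of the members, and beside many counts of the other lists. Replicates of a group differed beyond sampling noise (chi-square per degree of freedom 16.0 to 116).

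Members, lists, sequence words and tests were chosen with earlier results of these data known. Genes named were those called, the 6 highest and 6 lowest fold changes, a set of members of known role, the most and least abundant, and up to 4 of each list by p; others named were chosen after their values were seen. The terms for cell line were added after seeing the data. Lengths are of GENCODE M21 principal transcripts and start sequences of RefSeq (55 of 77 matched by symbol). Rps4y2 was not tested. Some single-gene results are not reported here.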

Additional observations from a re-analysis of the deposited data

Results flagged for a closer look

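The median change of ribosomal protein genes in CM against MG-CM had opposite signs in the PSC4 pair and the PSC5 pairs. The median over 76 genes was positive in the PSC4 pair (0.57, log2) and negative in both PSC5 pairs (-0.11 and -0.02), and the PSC4 change minus the PSC5 change had a median of 0.63. The difference of the medians was not tested. In the PSC5 libraries alone, with the block, 13 of 76 genes (17.1%) were lower at an unadjusted p under 0.05 in edgeR, against 17.9% of all genes. In that fit 1 gene (1.32%) was higher, against 17.3% of all genes. The PSC4 change was above the PSC5 change for 76 of 76 genes. All of these rest on the same PSC4 library in each group, so the spread within PSC4 could not be measured. CM replicate 1 is the single PSC4 library in CM, and its scaling factor (0.941) and its Cd14 level (114 CPM) are the lowest and the highest of the 9 libraries. CM replicate 3, from PSC5-II, had a scaling factor of 0.952. The part of the scaling factor and of Cd14 in the opposite signs was not tested, and line and medium source cannot be told apart.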

How the results depend on the processing

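In CM-JAKi against CM, where 2 genes were called, the count was 1 with library size alone, 1 with no low-count filter, 1 with only the 6 libraries of the groups, 12 with DESeq2 and 8 with the replicate block. Among alternatives added after seeing the data, it was 12 with a cell line term and 1 without replicate 1 and without a block. Leaving out libraries or replicate numbers gave 0 to 8, with a median log2 fold change of -0.48 to -0.12, below 0 each time. Without replicate 1, with the replicate block, it gave 8. Rpl13a was called in 13 of 17 alternatives (adjusted p 0.00127 to 0.109) and Rps24 in 6 of 17 (0.0108 to 0.138), by edgeR or DESeq2. Of related genes in that comparison, Mrps2 was called in 5 of 17 alternatives, Polr1a in 8 and Rpl22l1, Larp1 and Nop14 in 9 each. In CM against MG-CM, Wdr75 and Mphosph10 were called in 7 of 17 each (adjusted p up to 0.161 and 0.156 by edgeR or DESeq2). In CM against MG-CM the median turned to -0.077 without replicate 1 with the block and -0.075 without the block, where 1 and 0 genes were called. Leaving out libraries gave medians of -0.077 to 0.29 and 0 to 1 calls. In CM-JAKi against MG-CM the median stayed between -0.33 and -0.067, with 0 to 1 calls; without replicate 1 it was 1 call with and without the block. PSC4 against PSC5 had 14 calls with DESeq2, and 0 to 67 when a PSC4 library was left out. Without the 5 most abundant members the shares were 2.71% in CM-JAKi, 3.21% in CM and 3.07% in MG-CM. The cause of these shifts was not tested. Where libraries were left out, the fits also had fewer samples. The replicate block changed no other call count of the members. With 3 libraries per group there were 6 residual degrees of freedom (2 in PSC5 alone), and standard errors near 0.17 limit calls for changes of this size. Depth was at least 1257 counts for each tested member in each library.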
